A study of Mus musculus with 9 samples.

Results

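The glutathione synthesis and NRF2 antioxidant genes are 9 mouse genes chosen by name: Gclm, Gclc, Gsr, Txnrd1, Srxn1, Hmox1, Nqo1, Nfe2l2 and Keap1. All 9 were found among the 33495 genes of the table, each as 1 row. They were measured in sorted, genetically labelled neural crest cells of C57BL/6 embryos at embryonic day 9.5. Embryo explants without head and tail recovered for 1 h, received 10 µM of the peptide endothelin-1 (ET-1) or the vehicle phosphate-buffered saline (PBS), and stayed in culture for a further 12 to 15 h before sorting. The 9 samples formed 3 groups of 3: ET-1 explants of a conditional knockout in the neural crest of Mef2c, a transcription factor gene, wild type with ET-1, and wild type with PBS. No mutant with PBS was part of the design, and the labels name neither the Cre driver nor whether a sample came from separate or pooled embryos. The table gave 1 value per gene and group, in FPKM (fragment counts scaled to transcript length and to the mapped fragments of the group), so no level below has an error between samples.

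Glutathione is the main small thiol of the cell, and its first and limiting step is made by glutamate-cysteine ligase, a pair of a catalytic subunit (Gclc) and a modifier subunit (Gclm). NRF2, the transcription factor encoded by Nfe2l2, is held by KEAP1 and sent for degradation in unstressed cells. Oxidants and electrophiles release it, and with small MAF proteins it then binds antioxidant response elements beside genes such as Gclm, Gclc, Nqo1, Hmox1, Txnrd1 and Srxn1. Neural crest cells are known to be sensitive to oxidative stress in embryos.

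Pooled reads per group, recovered from the FPKM values of genes with a single exon, came to 46930085 in the Mef2c mutant with ET-1, against 19801218 in ET-1 wild type and 21507328 in PBS wild type. The mutant group was thus 2.37 times as deep as wild type with ET-1. Intervals given below are exact 95% intervals from these pooled reads and cover counting error only. Mef2c itself stood at 10.1 FPKM in the mutant with ET-1, against 25.2 FPKM in wild type with ET-1 and 7.71 FPKM in wild type with PBS. The mutant thus had the lower value of the ET-1 groups, and a whole-gene value cannot show a deleted exon. The summed level of 8 neural crest markers was 240 FPKM in the mutant with ET-1, 221 FPKM in wild type with ET-1 and 151 FPKM in wild type with PBS, led by the crest transcription factor Sox10 (70.9, 61.0 and 35.7 FPKM in the same order). Of the 7 that were tested, 4 were called higher with ET-1 and 1, Tcfap2b, higher in the mutant. Of all tested genes 0.39% were called higher with ET-1 and 1.18% higher in the mutant. The ET-1 call of 1 of the 4, Tcfap2b, was lost when adjusted over every row (adjusted p = 0.0904, against 0.0415, both based on the authors' deposited table). The mesenchymal crest marker Twist1 stood at only 0.936 FPKM in the mutant with ET-1, 1.28 FPKM in wild type with ET-1 and 1.496 FPKM in wild type with PBS.

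A single member differed past the threshold, and in a single comparison: Gclm was lower in the Mef2c mutant than in wild type, both with ET-1. A gene was called when the p-value of the authors' deposited table, adjusted by the Benjamini-Hochberg method over all genes tested, was under 0.05. Of the 9 members, 8 were tested in each comparison, and Nqo1, under 1 FPKM in every group, was not. In the mutant comparison 1 of 8 members was called, Gclm, and 4.94% of all 15459 tested genes were called (1.18% as higher and 3.75% as lower, and 2.45% of protein-coding genes alone). With ET-1 against PBS in wild type 0 of 8 members were called, also 0 at an unadjusted p under 0.05 in the authors' deposited table, and 0.533% of all 15395 tested genes were called (0.39% as higher and 0.143% as lower, and 0.553% of protein-coding genes alone). Both comparisons use the same wild-type ET-1 group. The median log2 fold of the 8 tested members (log2 of the ratio of FPKM + 1) was 0.02 in the mutant comparison, beside 0.05 for all tested genes, and −0.04 with ET-1, beside 0.01 for all tested genes. In bulk values such as these, fewer cells of a type and less RNA per cell cannot be told apart.

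**Figure D1:**
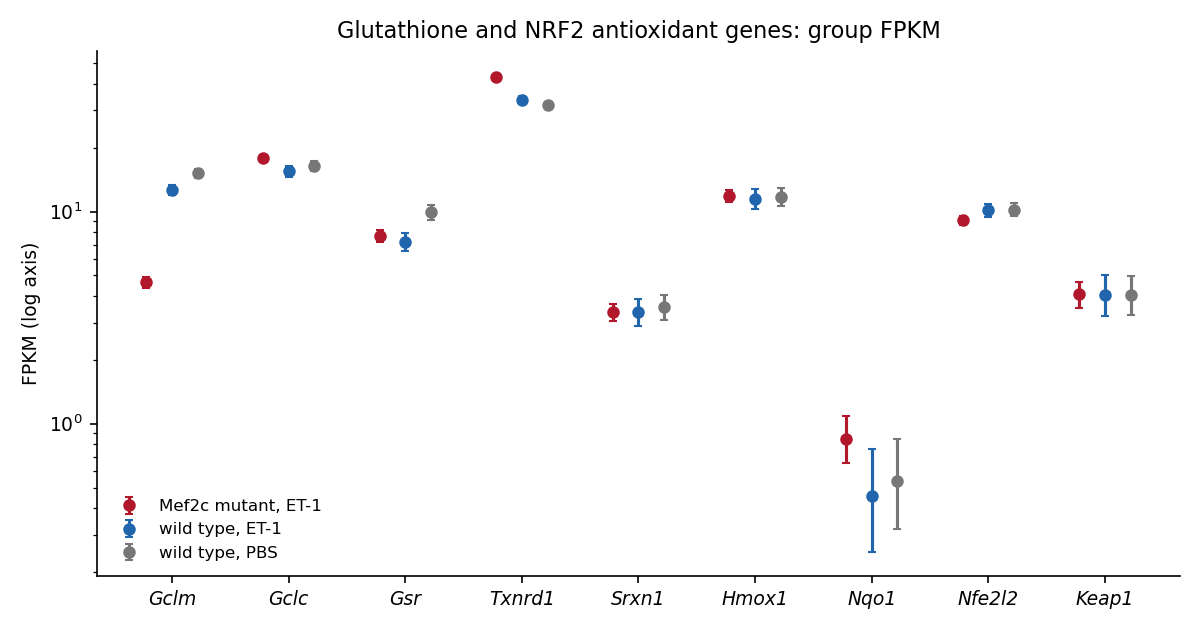
Level of each of the 9 genes in FPKM (log axis) in the Mef2c mutant with ET-1, wild type with ET-1 and wild type with PBS. Each point is 1 group value and the bars are exact 95% counting intervals. The Gclm point of the mutant, at 4.65 FPKM, lies apart from the 12.7 and 15.2 FPKM of the wild-type groups, while most other genes have 3 points close together.

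Of the glutamate-cysteine ligase pair, only the modifier subunit was called. Gclm (ENSMUSG00000028124, mm9 chr3:121948475-121972902) stood at 4.65 FPKM in the Mef2c mutant with ET-1, 12.7 FPKM in wild type with ET-1 and 15.2 FPKM in wild type with PBS. These values rested on 1122, 1290 and 1679 pooled reads in the same order. The mutant value was the lowest of the 3 and the wild-type values lay near each other. Gclm thus fell to 0.367 of the wild-type ET-1 level in the mutant (interval 0.338 to 0.398), at an adjusted p = 1.74e-12 (Benjamini-Hochberg, over the p-values that the authors' deposited table held). Its unadjusted p ranked 170 of 15459 tested genes and 18 among protein-coding genes, and 2.37% of tested genes had a larger log2 fold in either direction. With ET-1 against PBS in wild type the fold was 0.835 (interval 0.776 to 0.898), at p = 0.102 and an adjusted p = 1 based on the authors' deposited table. The mutant with ET-1 over wild type with PBS, for which no p-value was given, came to 0.306 (interval 0.284 to 0.330).

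Gclc (ENSMUSG00000032350, mm9 chr9:77602342-77642292), which carries the catalytic site, stood at 17.8 FPKM in the mutant with ET-1, 15.5 FPKM in wild type with ET-1 and 16.4 FPKM in wild type with PBS. The groups thus lay close to each other, with the mutant highest. The mutant fold was 1.15 (interval 1.07 to 1.24), at an adjusted p = 0.925 based on the authors' deposited table, and the ET-1 fold was 0.943 (interval 0.867 to 1.02). Per length, Gclm was 0.261 of the Gclc level in the mutant with ET-1, against 0.819 in wild type with ET-1 and 0.925 in wild type with PBS. The fold of Gclm divided by the fold of Gclc was 0.319 in the mutant comparison (interval 0.286 to 0.355) and 0.885 with ET-1 (interval 0.792 to 0.990). This ratio of folds has a counting interval but no test across samples.

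The Gclm gene model holds an exon that shares its sequence with another gene. In GENCODE M21 (GRCm38) a processed transcript, Gclm-202, ends in an exon of 296 bases at chr3:122256676-122256971 on the plus strand, and 244 of these bases lie inside Gm6061, a processed pseudogene at chr3:122256728-122257219. The exon is shown because it is the part of the Gclm model that other transcripts share. Ppia is the gene of the abundant peptidyl-prolyl isomerase cyclophilin A. Capitals mark the longest run, 176 bases from base 121, that is identical to 1 of its transcripts, Ppia-206. Other Ppia transcripts were not searched for this run, so lower case does not mean absent from Ppia.
last exon of Gclm-202, plus strand, GRCm38: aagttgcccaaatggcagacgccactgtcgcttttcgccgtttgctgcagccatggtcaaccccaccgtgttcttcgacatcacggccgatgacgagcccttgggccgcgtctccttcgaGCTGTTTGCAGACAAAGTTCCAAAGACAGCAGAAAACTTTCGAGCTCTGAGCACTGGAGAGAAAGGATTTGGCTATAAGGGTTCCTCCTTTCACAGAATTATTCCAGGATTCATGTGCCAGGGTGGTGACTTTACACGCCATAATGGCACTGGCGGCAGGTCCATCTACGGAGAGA
Of the 247 stretches of 50 bases in this exon, 206 also occur in protein-coding Ppia transcripts. These are more than the capitals hold, so part of the lower-case sequence is shared with Ppia as well. Over the whole of Gclm-202, 34.8% of 50-base stretches occur in other genes, and over the main coding transcript Gclm-201 the share is 0.776%.

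The FPKM of Gclm was computed over a model that includes this exon. The whole reads recovered from the 3 group values gave a model length of 5137 bases. The exons of Gclm-201 and Gclm-202 together span 5885 bases in GRCm38, and the annotated gene is 748 bases longer there than the deposited span, which leaves exactly 5137 bases. Gclm-201 alone would leave 4841 bases. A group value over the whole model does not separate reads on the shared exon from reads on the rest.

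Ppia and its annotated copies are given beside Gclm for that reason, chosen after the values of Gclm were seen. Ppia itself, on chromosome 11, stood at 180 FPKM in the mutant with ET-1, 170 FPKM in wild type with ET-1 and 187 FPKM in wild type with PBS, a mutant fold of 1.06 at an adjusted p = 1 based on the authors' deposited table. The 5 processed pseudogenes in the table with at least 20% of their 50-base stretches in Ppia were all called lower in the mutant. Of all 15459 tested genes 3.75% were called lower. In either direction 4.94% of all tested genes and 2.45% of protein-coding genes were called, so other models were called more often than protein-coding genes. The share among pseudogenes was not counted. With ET-1 0 of the 5 copies were called, beside 0.533% of all tested genes. Their mutant folds ran from 0.0569 (Gm5160) to 0.571 (Gm10123) with a median of 0.161, and their ET-1 folds from 0.688 to 0.874. Gm13493, a copy on another locus, stood at 36.2 FPKM in the mutant with ET-1, 133 FPKM in wild type with ET-1 and 158 FPKM in wild type with PBS. Gm9234 stood at 4.78, 29.6 and 39.2 FPKM in the same order. The Ppia copies and Gclm thus were lowest in the same group, and Ppia and Gclc were not.

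The difference in Gclm can be put on the scale of the exon. Scaled to the depth of wild type with ET-1, the mutant reads on Gclm came to 473, and wild type with ET-1 had 817 reads more. Placed entirely on the 296-base exon, 817 reads would be a level of 139 FPKM there, beside drops of 11.2 to 217 FPKM in the 5 copies between wild type with ET-1 and the mutant. Against wild type with PBS the same sum gave 1165 reads, or 183 FPKM. Where on the model the reads lay was not tested, and the part of the exon in the Gclm result was not tested.

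**Figure D2:**
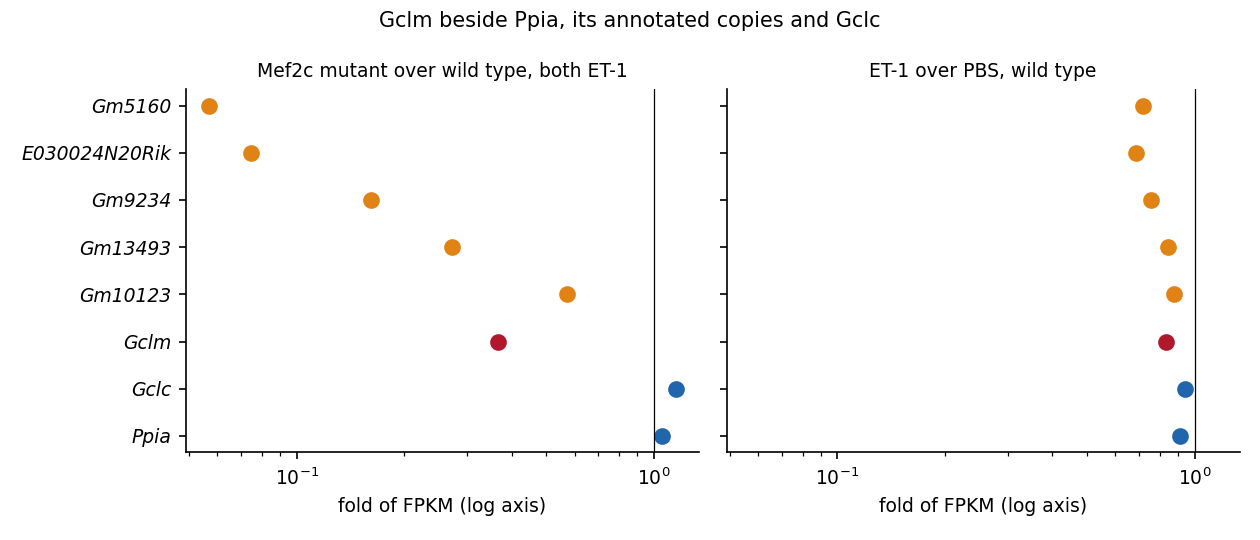
Fold of FPKM (log axis) for 5 Ppia copies (orange), Gclm (red), Gclc and Ppia (blue), in the Mef2c mutant over wild type with ET-1 at left and in ET-1 over PBS at right. In the mutant comparison the copies lie between 0.0569 and 0.571 and Gclm at 0.367, while Gclc and Ppia lie at 1.15 and 1.06; with ET-1 all 8 lie between 0.688 and 0.943.

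The 3 genes with the pattern most like that of Gclm were 2 ribosomal protein pseudogenes and a histone gene. Among 9343 genes with at least 5 FPKM in every group, the nearest in the plane of the 2 log2 folds was Rpl17-ps9, a processed pseudogene of a ribosomal protein gene, at 67.7 FPKM in the mutant with ET-1, 166 FPKM in wild type with ET-1 and 194 FPKM in wild type with PBS (distance 0.0227). Next were Rpl9-ps7, another such pseudogene, at 71.3, 178 and 213 FPKM in the same order (distance 0.0369), and Hist2h2aa2, a histone H2A gene with near-identical copies, at 70.6, 177 and 209 FPKM (distance 0.0373). How common such pseudogenes and gene families are among the 9343 was not tested. Hist2h2aa2 was not called in the mutant, at an adjusted p = 0.472 based on the authors' deposited table. Around Gclm, 6 protein-coding genes within 500 kb were tested in the mutant comparison and 0 were called, with folds from 0.830 (Arhgap29) to 1.22 (Dnttip2). The remaining tested model there, the processed pseudogene Gm4609, was lower at 341 FPKM in the mutant with ET-1, against 710 FPKM in wild type with ET-1 and 800 FPKM in wild type with PBS (fold 0.480, adjusted p = 2.63e-15 based on the authors' deposited table).

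**Figure D3:**
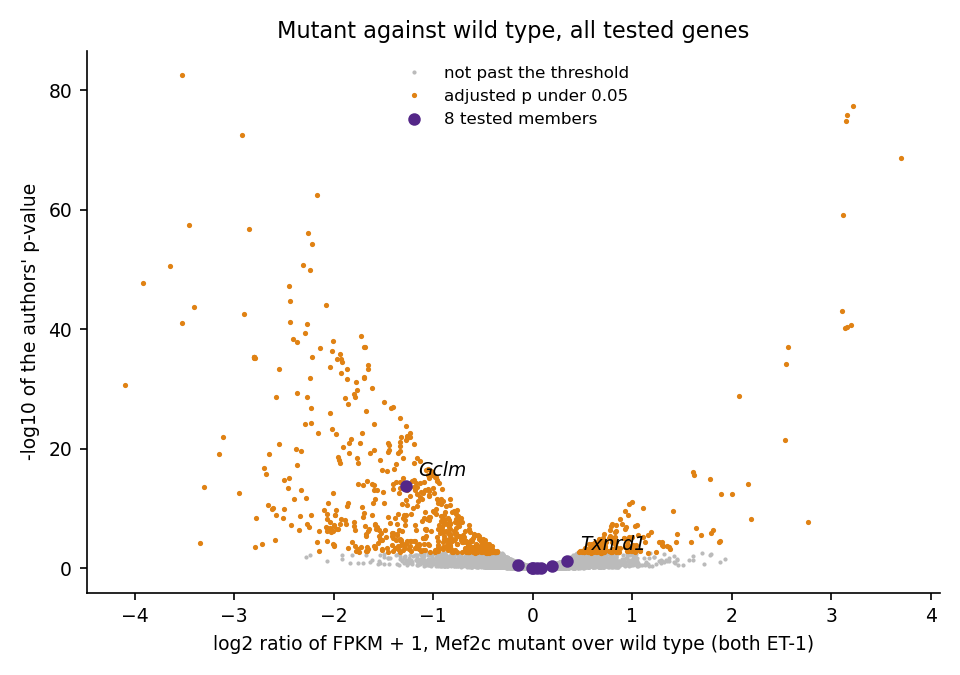
Mutant comparison over all 15459 tested genes: log2 ratio of FPKM + 1, Mef2c mutant over wild type with ET-1 (horizontal), against −log10 of the authors' unadjusted p-value (vertical). Called genes are orange and the 8 tested members purple; Gclm is the only member among the called genes, and the other 7 lie at the foot of the plot.

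Glutathione recycling was carried at a moderate level. Gsr (ENSMUSG00000031584, mm9 chr8:34762995-34808635), the reductase that returns oxidised glutathione to its thiol form, stood at 7.70 FPKM in the mutant with ET-1, 7.19 FPKM in wild type with ET-1 and 9.94 FPKM in wild type with PBS. Both ET-1 groups thus lay below the PBS group. Its ET-1 fold, 0.723 (interval 0.635 to 0.823), was the largest departure among the members in that comparison and missed the threshold, at p = 0.0605 and an adjusted p = 1 based on the authors' deposited table. The mutant fold was 1.07 (interval 0.952 to 1.21), and the mutant with ET-1 over wild type with PBS came to 0.774 (interval 0.698 to 0.859).

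The thioredoxin arm held the most abundant member. Txnrd1 (ENSMUSG00000020250, mm9 chr10:82321951-82360469), the cytosolic selenoenzyme that reduces thioredoxin, stood at 43.3 FPKM in the mutant with ET-1, 33.8 FPKM in wild type with ET-1 and 31.7 FPKM in wild type with PBS. The mutant value was the highest, with a fold of 1.28 (interval 1.22 to 1.34), p = 0.0534 and an adjusted p = 0.449 based on the authors' deposited table. The ET-1 fold was 1.06 (interval 1.00 to 1.13). Srxn1 (ENSMUSG00000032802, mm9 chr2:151931252-151937112), sulfiredoxin, repairs over-oxidised peroxiredoxins. It stood at 3.35 FPKM in the mutant with ET-1, 3.37 FPKM in wild type with ET-1 and 3.54 FPKM in wild type with PBS, nearly the same in all groups. Its counting interval allows a mutant fold between 0.838 and 1.19.

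Of the stress enzymes often read as NRF2 outputs, 1 had near-equal values in all groups and 1 was too low to test. Hmox1 (ENSMUSG00000005413, mm9 chr8:77617521-77624488), the inducible heme oxygenase, stood at 11.8 FPKM in the mutant with ET-1, 11.5 FPKM in wild type with ET-1 and 11.7 FPKM in wild type with PBS. Its mutant fold was 1.03 (interval 0.910 to 1.17) and its ET-1 fold 0.979 (interval 0.846 to 1.13). Nqo1 (ENSMUSG00000003849, mm9 chr8:109912125-109927106), a quinone reductase, had only 62 pooled reads in the mutant with ET-1, 14 in wild type with ET-1 and 18 in wild type with PBS, or 0.851, 0.455 and 0.539 FPKM. Its mutant fold of 1.87 had an interval of 1.03 to 3.61, and its ET-1 fold of 0.845 had one of 0.389 to 1.80. The unadjusted p of Nqo1 was 0.481 in the mutant comparison and 0.898 with ET-1, based on the authors' deposited table. With so few reads the size of its folds is uncertain.

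The transcription factor and its inhibitor kept near-equal levels. Nfe2l2 (ENSMUSG00000015839, mm9 chr2:75513570-75542698) stood at 9.12 FPKM in the mutant with ET-1, 10.2 FPKM in wild type with ET-1 and 10.2 FPKM in wild type with PBS. Its mutant fold was 0.896 (interval 0.821 to 0.977), at an adjusted p = 0.852 based on the authors' deposited table, and its ET-1 fold 0.996 (interval 0.902 to 1.10). Keap1 (ENSMUSG00000003308, mm9 chr9:21034511-21043261) stood at 4.07 FPKM in the mutant with ET-1, 4.05 FPKM in wild type with ET-1 and 4.04 FPKM in wild type with PBS. Its mutant fold was 1.01 (interval 0.775 to 1.32) and its ET-1 fold 1.00 (interval 0.734 to 1.37). The model length recovered for Keap1, 1036 bases, is below that of its coding transcripts in GENCODE M21 (2163 to 3614 bases). Its reads may thus be undercounted and these intervals too wide. The Keap1 row overlaps another model, AC163637.2, at 5.98, 7.22 and 6.71 FPKM in the same order of groups, and up to 17.5% of the 50-base stretches of a Keap1 transcript occur in another gene, Gm16754, so its value is uncertain. RNA levels of Nfe2l2 and Keap1 do not report the amount of NRF2 protein, which is set largely by degradation.

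**Figure D4:**
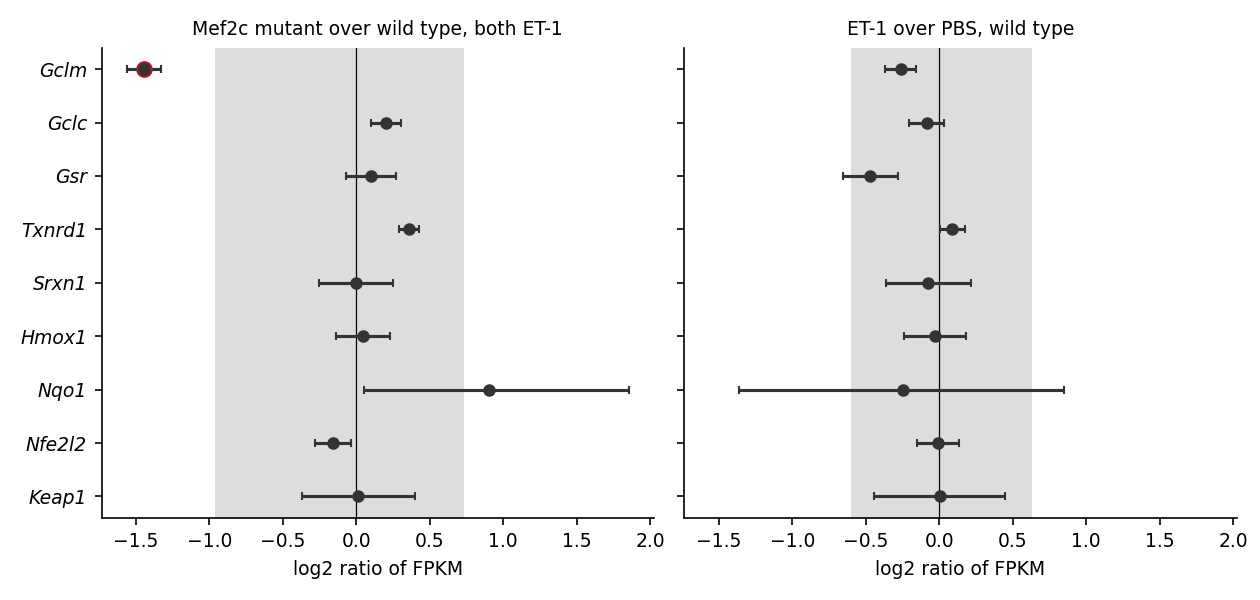
Log2 ratio of FPKM for each of the 9 genes, Mef2c mutant over wild type with ET-1 at left and ET-1 over PBS at right. Bars are exact 95% counting intervals, the grey band holds the middle 90% of all tested genes (−0.96 to 0.73 at left, −0.59 to 0.63 at right), and the red ring marks the called gene. Gclm lies left of the band in the mutant comparison; Nqo1 lies right of it with an interval that reaches into it.

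Placed in order of level per length, the members stood in the same order in both wild-type groups: Txnrd1, Gclc, Gclm, Hmox1, Nfe2l2, Gsr, Keap1, Srxn1 and Nqo1. In wild type with PBS the counting intervals of Gclc and Gclm (15.5 to 17.4 and 14.5 to 15.9 FPKM), of Hmox1 and Nfe2l2 (10.6 to 12.9 and 9.53 to 10.9 FPKM), of Nfe2l2 and Gsr (9.53 to 10.9 and 9.16 to 10.8 FPKM), and of Keap1 and Srxn1 (3.25 to 4.96 and 3.09 to 4.05 FPKM) overlapped. In the mutant with ET-1, Gclm came after Gsr and before Keap1, and the intervals of Gclm and Keap1 (4.39 to 4.93 and 3.52 to 4.68 FPKM) overlapped. The Gclm values are over the model that includes the exon shared with Ppia. The place of Gclm without that exon, in any group, was not tested. The Keap1 intervals may be too wide, as its recovered model length was short. The summed level of the 9 genes was 103 FPKM in the mutant with ET-1, 98.7 FPKM in wild type with ET-1 and 103 FPKM in wild type with PBS.

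Short promoter sequences were available from RefSeq (GRCm38.p6) for 6 of the 9 members, as 8 promoters of 250 bases before to 50 bases after a gene start. The core of the antioxidant response element, TGACNNNGC on either strand (GCNNNGTCA when read on the other strand), was found in 4 of the 8, belonging to 4 members, and 12.4% of all 32851 promoters of this length hold it. The matches are shown because NRF2 acts through this element. Each is the match with its flanks, 5′ to 3′ on the gene strand, with the match in capitals.
Gclm, chr3:122245307-122245606, plus strand, match from base −134: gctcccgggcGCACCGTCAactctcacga
Txnrd1, chr10:82858956-82859255, plus strand, match from base −92: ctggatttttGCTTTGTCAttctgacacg
Srxn1, chr2:152105274-152105573, plus strand, match from base 29: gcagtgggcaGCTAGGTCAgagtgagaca
Nfe2l2, chr2:75704614-75704913, minus strand, match from base −240: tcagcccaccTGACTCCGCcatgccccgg
For Nfe2l2 alone, the bases after the promoter's start were not found whole near the start of a GENCODE transcript. The position given for its match is thus less certain. The consensus MEF2 site was found in 0 of the 8 promoters and in 3.19% of all promoters. A match is a description of letters and says nothing of binding, and the 4 genes with a match include Gclm, which was called, and 3 that were not.

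Beyond the members, 112 further genes of glutathione, thioredoxin, NADPH, heme and stress pathways were tested in each comparison. In the mutant 4 of 112 were called, all lower (3.57%, where 4.94% of all tested genes and 2.45% of protein-coding genes were called), and with ET-1 1 of 112 was called, higher (0.893%, where 0.533% of all tested genes and 0.553% of protein-coding genes were called). All 112 are protein-coding. The median log2 fold of these genes was 0.06 in the mutant comparison and −0.01 with ET-1. Counts by pathway, here and below, also include members. Nfe2l2 and Keap1 are among the regulators, and Hmox1 and Srxn1 among other NRF2 targets. Hmox1 is also on the heme list, and Txnrd1 and Srxn1 are on the thioredoxin list. By pathway, the KEAP1-NRF2 regulators had 0 of 16 called in either comparison, and so did the superoxide dismutases, catalase and glutathione peroxidases (0 of 9), NADPH supply (0 of 12) and heme and iron handling (0 of 11). The glutathione S-transferases had 0 of 16 called in the mutant and 0 of 17 with ET-1. Glutathione synthesis and turnover, with the ligase subunits and Gsr among its genes, had 1 of 13 called in the mutant (Gclm) and 1 of 13 with ET-1 (Slc7a11), and other NRF2 targets had 0 of 12 and 1 of 12 (Slc7a11).

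The gene called with ET-1 was Slc7a11, the transport subunit of the cystine importer that supplies cysteine to glutathione synthesis and a target of both NRF2 and ATF4. It stood at 17.0 FPKM in the mutant with ET-1, 12.7 FPKM in wild type with ET-1 and 7.99 FPKM in wild type with PBS. Both ET-1 groups thus lay above the PBS group. Slc7a11 rose 1.59-fold with ET-1 in wild type (interval 1.498 to 1.683), at an adjusted p = 0.00876 based on the authors' deposited table. Its mutant fold was 1.34 (interval 1.28 to 1.40), at p = 0.0158 and an adjusted p = 0.212 based on the authors' deposited table. Slc7a11 was also in the authors' deposited table of 406 induced genes, with a normalized induction of 1.58, a mark for a MEF2 motif and none for Mef2c dependence. That table held 8 of the pathway genes and 0 of the 9 members.

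Of the other 14 ATF4 targets 0 were called with ET-1, beside 0.533% of all tested genes. An unadjusted p under 0.05 was held by 6 of the 14 in the authors' deposited table, 5 with a fold above 1 and 1 below (Vldlr, fold 0.801), beside 4.51% of all tested genes. The median log2 fold of the 14 was 0.17, beside 0.01 for all tested genes. ATF4 is the transcription factor of the amino acid and integrated stress response. In the mutant 1 of 15 was called, Ddit4, beside 4.94% of all tested genes and 2.45% of protein-coding genes. Ddit4, an inhibitor of mTORC1 induced by stress, stood at 26.4 FPKM in the mutant with ET-1, 42.9 FPKM in wild type with ET-1 and 48.2 FPKM in wild type with PBS. Ddit4 was lower in the mutant at 0.616 of the wild-type ET-1 level (interval 0.575 to 0.659), at an adjusted p = 0.000844 based on the authors' deposited table.

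**Figure D5:**
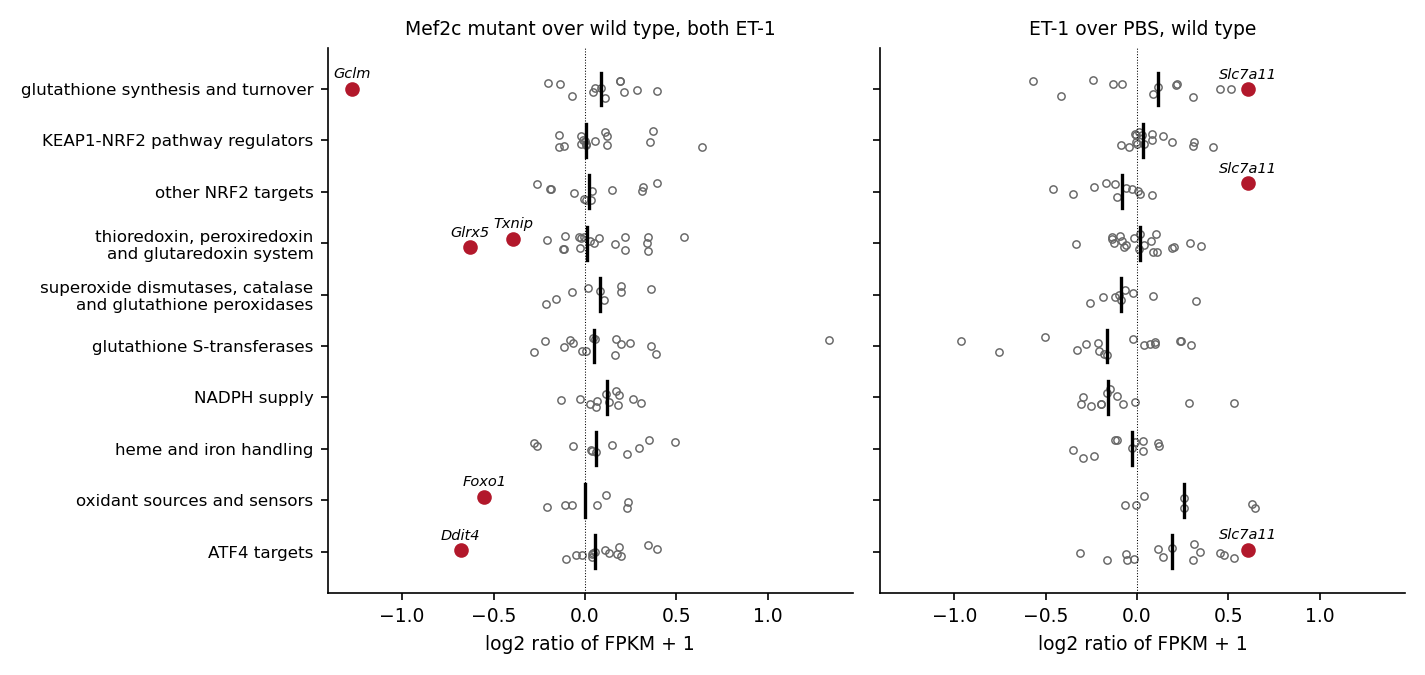
Log2 ratio of FPKM + 1 for every tested gene of 10 pathway lists, Mef2c mutant over wild type with ET-1 at left and ET-1 over PBS at right. Each circle is 1 gene, filled red and named when called, and the bar is the median of the list. In the ET-1 comparison the medians run from −0.17 for the glutathione S-transferases to 0.25 for the oxidant sources; a gene on several lists appears in each.

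The thioredoxin, peroxiredoxin and glutaredoxin list had 2 of 20 genes called in the mutant, both lower, and 0 of 20 with ET-1. In the mutant 4.94% of all tested genes and 2.45% of protein-coding genes were called, and with ET-1 0.533% and 0.553%. Counts this small do not describe a list as a whole. Txnip, which binds and inhibits thioredoxin, stood at 70.0 FPKM in the mutant with ET-1, 92.1 FPKM in wild type with ET-1 and 79.9 FPKM in wild type with PBS (mutant fold 0.760, interval 0.733 to 0.789, adjusted p = 0.0339 based on the authors' deposited table). An antisense model, Gm15441, overlaps Txnip at 2.82, 1.31 and 2.69 FPKM in the same order of groups, and reads of the 2 cannot be told apart without strand. Glrx5, a mitochondrial glutaredoxin of iron-sulfur cluster assembly, stood at 27.1 FPKM in the mutant with ET-1, 42.6 FPKM in wild type with ET-1 and 33.2 FPKM in wild type with PBS (mutant fold 0.638, interval 0.581 to 0.700, adjusted p = 0.0253 based on the authors' deposited table). Of the oxidant sources and sensors 1 of 8 was called in the mutant and 0 of 7 with ET-1. Foxo1, a transcription factor that responds to insulin and oxidants, was called lower in the mutant, at 4.80 FPKM in the mutant with ET-1, 7.50 FPKM in wild type with ET-1 and 4.49 FPKM in wild type with PBS (fold 0.640, interval 0.564 to 0.727, adjusted p = 0.0187 based on the authors' deposited table). With ET-1 the Foxo1 fold was 1.67 (interval 1.43 to 1.95), at p = 0.00159 and an adjusted p = 0.188 based on the authors' deposited table. Among the 8 pathway genes in the authors' deposited table of induced genes, Foxo1 alone was marked Mef2c dependent, with a normalized induction of 1.63 and a mark for a MEF2 motif. The calls of Txnip and Glrx5 were lost when p-values were adjusted over protein-coding genes only (adjusted p = 0.0764 and 0.0589) or over every row of the authors' table (0.0725 and 0.0541).

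Of the lists with no call, the genes with the widest folds were as follows. Nfe2l3, an NRF2 relative, stood at 8.22 FPKM in the mutant with ET-1, 4.92 FPKM in wild type with ET-1 and 4.60 FPKM in wild type with PBS (mutant fold 1.67, interval 1.37 to 2.05, adjusted p = 0.199 based on the authors' deposited table). Maff, a small MAF partner of NRF2, stood at 8.34, 8.33 and 5.99 FPKM in that order of groups. Among the glutathione S-transferases, Mgst2 stood at 2.39, 0.343 and 1.26 FPKM, from 66, 4 and 16 pooled reads. Its mutant fold of 6.96 (interval 2.59 to 26.3) was not called, at p = 0.0434 and an adjusted p = 0.401 based on the authors' deposited table, and its ET-1 fold was 0.272 (interval 0.0661 to 0.842). Gstm7 stood at 2.46, 1.91 and 4.68 FPKM in that order, with an ET-1 fold of 0.409 (interval 0.300 to 0.552) that was not called either.
Among the peroxidases, Gpx3 stood at 39.9 FPKM in the mutant with ET-1, 37.1 FPKM in wild type with ET-1 and 29.4 FPKM in wild type with PBS, and Gpx7 at 4.86, 3.56 and 3.64 FPKM in that order. For NADPH supply, Aldh1l2, a mitochondrial folate enzyme, stood at 13.5, 11.7 and 7.80 FPKM (ET-1 fold 1.501, adjusted p = 0.166 based on the authors' deposited table), and the transketolase gene Tkt at 47.7, 45.5 and 56.6 FPKM. For heme, the constitutive heme oxygenase gene Hmox2 stood at 15.3, 10.6 and 9.72 FPKM and the ferrochelatase gene Fech at 5.70, 4.25 and 4.12 FPKM.

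Markers of other cell types that the sorted cells could hold were mostly low, and sums below are over those with FPKM in all groups. Cd68, the most abundant of 4 macrophage markers, was higher in the mutant, at 12.4 FPKM in the mutant with ET-1, 5.54 FPKM in wild type with ET-1 and 5.70 FPKM in wild type with PBS (fold 2.23, adjusted p = 0.0227 based on the authors' deposited table). With Csf1r it summed to 13.2, 5.96 and 6.22 FPKM in the same order, while the pan-leukocyte marker Ptprc was listed at 0 in both ET-1 groups and Aif1 at 0 in the mutant, against 0.952 FPKM in wild type with ET-1 and 0.712 FPKM in wild type with PBS. The call of Cd68 was lost over protein-coding genes only (adjusted p = 0.0534, based on the authors' deposited table). Of 5 erythroid markers 4 summed to 16.9 FPKM in the mutant with ET-1, 29.6 FPKM in wild type with ET-1 and 31.2 FPKM in wild type with PBS. The embryonic globin gene Hbb-y (4.22, 10.5 and 15.2 FPKM) was not called. Its mutant fold was 0.403 (interval 0.315 to 0.516), at an adjusted p = 0.0734 based on the authors' deposited table. The erythroid sum was thus lowest in the mutant, and 0 of the 4 tested erythroid markers were called in either comparison. All 4 were lower in the mutant than in wild type with ET-1, with log2 folds from −1.13 to −0.40. Afp and the neural tube, endothelial and epithelial sums given below were lowest in the mutant too, as was Gclm. The gaps were unlike in size: the neural tube sums lay near each other, and Afp was too low for the mutant test. A link between Gclm and these markers was not tested. Afp, the yolk sac and liver marker with FPKM in all groups, was lower with ET-1, at 0.180 FPKM in the mutant with ET-1, 0.452 FPKM in wild type with ET-1 and 3.12 FPKM in wild type with PBS. Of 5 neural tube markers 3 summed to 70.8, 73.7 and 77.8 FPKM in the same order of groups, led by Sox2 (37.0, 40.3 and 38.7 FPKM). These were the highest sums after the crest list. The 5 endothelial markers summed to 2.11, 2.77 and 3.14 FPKM, led by Egfl7 (1.18, 1.66 and 1.65 FPKM). The 4 epithelial markers summed to 2.91, 4.09 and 5.94 FPKM, led by Krt18 (1.63, 2.12 and 2.66 FPKM), and 2 of 4 cardiac muscle markers to 5.98, 4.71 and 3.02 FPKM, led by Actc1 (5.74, 4.59 and 2.87 FPKM). The part of these markers and of the unequal depth in the results above was not tested.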

How the data were processed

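Sorted neural crest cells were sampled in 3 groups of 3, from which the deposited table gave 1 FPKM value per gene and group, computed by the authors, per the file headers. It also held a p-value from the authors for each of the 2 comparisons, per the file headers, taken as unadjusted because 97.9% of the tested ET-1 values were distinct. A second deposited table, of induced genes as chosen by the authors, gave a normalized fold and marks for a MEF2 motif and Mef2c dependence. The submitters' processing notes name TopHat 1.3.1, Cufflinks 1.3.0, Cuffdiff and build mm9, and RNA was amplified before library construction, per the labels' protocols. The sources used here give neither the way of combining replicates nor the test behind the p-values, so the p-values may measure only technical spread.

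Rows with whole numbers in both wild-type groups and p exactly 1, 15639 in all, were not used as FPKM. Benjamini-Hochberg adjustment of the authors' p-values ran over genes that had FPKM in both groups and reached 1 FPKM in at least 1 of them (15395 for ET-1, 15459 for the mutant) and genes were called under 0.05. The log2 fold is on the scale of FPKM plus a pseudocount of 1, which understates the change of low genes. Pooled counts of reads were recovered from the deposited FPKM: in models with a single exon 93.7% of the mutant, 93.4% of the wild-type ET-1 and 93.4% of the wild-type PBS values were whole reads within 0.02, and other model lengths were the smallest giving whole reads in all groups. Shorter lengths widen the intervals, which cover counting error only. These 95% intervals were exact Clopper-Pearson for folds and exact Poisson for levels. For the fold of Gclm over that of Gclc they came from a conditional odds ratio. Amplified reads are not independent molecules, so the intervals may be too narrow even for counting error. Shared sequence was counted as 50-base stretches of GENCODE M21 transcripts. Adjustment and read recovery were tested on simulated data. Python 3.11.15, numpy 2.4.6, pandas 2.3.3 and scipy 1.17.1 were used. There were 0 columns of other samples.

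The members and gene lists were chosen with earlier results of these data known. Named genes were all members, every list gene called in either comparison (for lists with none, the 2 with the widest log2 fold), the most abundant marker of each other cell type, and the 3 genes nearest to a called member in the plane of both log2 folds. Alternatives were no filter, 5 FPKM, other adjustments, an adjusted p under 0.1, a further fold of 1.5, other pseudocounts and centring.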

Additional observations from a re-analysis of the deposited data

How the results depend on the processing

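No paired analysis was possible because the table held 1 value per group, and leaving out each sample was not run for the same reason. The count of members called was 0 with ET-1 and 1 (Gclm) in the mutant under every planned filter, adjustment and threshold. It was 0 in the mutant, with 6 members tested, without genes that share over 10% of the 50-base stretches of any transcript with another gene, an alternative chosen after seeing the data that leaves out Gclm and Keap1. The count of further pathway genes called in the mutant was 4, and 2 when p-values were adjusted over every row or over protein-coding genes only, which left Ddit4 and Foxo1. Centring log2 folds on the median of all tested genes, or of genes with at least 5 FPKM, turned the sign of 2 near-zero members. These were Keap1 with ET-1 (−0.0122 and −0.0120), Hmox1 (−0.0049 and −0.0063) and Keap1 (−0.0381 and −0.0395) in the mutant, and Hmox1 (−0.0488 and −0.0526) and Keap1 (−0.0517 and −0.0556) in the mutant with ET-1 against wild type with PBS. Of 108 member folds under another pseudocount or centring, the other 98 kept their sign, and all 64 member calls under another filter or adjustment stayed as given. Depth limits Nqo1 most, with 14 reads in wild type with ET-1.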
